A study of Saccharomyces cerevisiae with 18 samples.

Results

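Ribosome footprints were counted on 10 genes for mannoproteins of the yeast cell wall, *CWP1*, *CWP2*, *TIR1*, *TIR2*, *TIR3*, *PIR1*, *HSP150*, *CIS3*, *SED1* and *CCW12*, out of 6159 genes listed in either count table. The genes were chosen by name, with the counts of these tables already known, so the number of them that changed in a comparison is a description and not evidence about wall genes in general. The strains were the triple deletion *ncs2*∆*elp6*∆*hel2*∆ (*ncs2*∆::HIS3MX, *elp6*∆::URA3, *hel2*∆::LEU2), the double deletion *ncs2*∆*elp6*∆ (*ncs2*∆::HIS3MX, *elp6*∆::URA3), *hel2*∆ (*hel2*∆::LEU2) and wild type. All 4 are MATa derivatives of the laboratory strain BY4741 with *his3*∆1, *leu2*∆0 and *ura3*∆0, the wild type alone is also labelled *met15*∆0, and all were grown to mid-exponential phase in the rich medium YPD at 30 °C. A deletion therefore goes together with the marker gene that replaced it. Each mutant also differs from wild type in the *met15*∆0 label, so this label and the deletions cannot be told apart in those comparisons. Monosome footprints, the mRNA fragments protected by single ribosomes, were sequenced in 2 libraries of the triple deletion, 3 of *ncs2*∆*elp6*∆, 2 of *hel2*∆ and 3 of wild type, and disome footprints, left by ribosomes that have run into each other, in 2 libraries of each strain. The comparisons ask how the strains differ in footprints on these genes when wobble-uridine tRNA modifications, the collision sensor Hel2, or both are missing.

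The outer layer of the yeast wall consists of heavily mannosylated proteins attached to an inner network of glucan and chitin. Most of them, among them Cwp1, Cwp2, the Tir proteins, Sed1 and Ccw12, carry a glycosylphosphatidylinositol (GPI) anchor in the secretory pathway and end up linked to β-1,6-glucan, whereas the Pir proteins (proteins with internal repeats) Pir1, Hsp150 and Cis3 are linked to β-1,3-glucan. *TIR* genes are known for their induction by cold shock and in the absence of oxygen, and many wall genes are induced by the cell wall integrity pathway through the kinase Slt2 and the transcription factor Rlm1. Ncs2 acts in thiolation and Elp6 in the Elongator complex, which together modify the wobble uridine of a group of tRNAs, and the ubiquitin ligase Hel2 senses ribosome collisions and triggers quality control of the stalled translation.

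The monosome libraries held 2381991 and 4352295 counts in the triple deletion, 13791038 to 24884873 in *ncs2*∆*elp6*∆, 2560606 and 3548631 in *hel2*∆ and 11702547 to 13710907 in wild type, and the disome libraries held 845707 to 2521397. Low monosome depth and the deletion of *HEL2* therefore cannot be told apart. *HEL2* had at most 6 counts in every library of the strains that lack it and *ELP6* at most 3, and *NCS2* kept up to 26 counts in its deletion strains, against 189 to 274 in wild-type monosomes. The a-specific genes *STE2*, *MFA1*, *MFA2*, *BAR1* and *STE6* had at least 231 counts in every monosome library, against at most 78 for the alpha-specific genes *STE3*, *MF(ALPHA)1*, *MF(ALPHA)2* and *SAG1*. Over 5198 to 5222 genes, wild-type monosome replicate 3 differed more from replicates 1 and 2 than these did from each other. The chi-square per degree of freedom was 22.2 and 16.2, against 6.26. In *ncs2*∆*elp6*∆, monosome replicate 3 also differed more from replicates 1 and 2 (15.0 and 14.9) than these did from each other (8.16). Wild-type monosome replicate 3 stood apart on the wall genes too. Its *TIR1* level was 4.14-fold that of the mean of replicates 1 and 2, the highest such ratio of 4819 genes, and *SED1* (1.76-fold, rank 13), *TIR3* (1.63-fold, rank 22) and *CWP1* (1.48-fold, rank 59) were also among the genes with the highest ratios. This library has no disome partner, and comparisons with wild type are given without it where its removal moved a call, a count or a direction. It was singled out by levels of these same genes, and leaving it out leaves 2 wild-type monosome libraries. Smaller p-values without it are therefore a description of how far results rest on it, and not independent evidence of a change.

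Levels are given as scaled CPM, counts scaled to a common library total (CPM) after that total was multiplied by a composition factor (trimmed mean of M values, TMM), which puts the median change of all genes near 0. Footprints count ribosomes, so more mRNA and more ribosomes on each mRNA cannot be told apart. Per kilobase of counted sequence, *CCW12* had 11667 ± 1736 scaled CPM in wild-type monosomes (SD, n = 3) and ranked 8 of 5716 genes. *CWP2* (4002 ± 804, rank 54), *HSP150* (2335 ± 243, rank 98) and *CIS3* (1781 ± 161, rank 137) followed. *PIR1* (869 ± 170) and *SED1* (715 ± 249) lay within each other's spread. *TIR1* averaged 375 ± 332, from 188, 178 and 758 in replicates 1, 2 and 3, and 183 without replicate 3. *CWP1* had 196 ± 50.8, and *TIR3* (26.6 ± 8.06, rank 2601) and *TIR2* (3.02 ± 2.20, rank 4810) had few footprints. Only reads that mapped to a single place had been counted, so reads within the repeats of *PIR1*, *HSP150*, *CIS3* and *SED1*, or shared by *TIR1* and *TIR2*, may be missing from these levels in every strain.

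**Figure D1:**
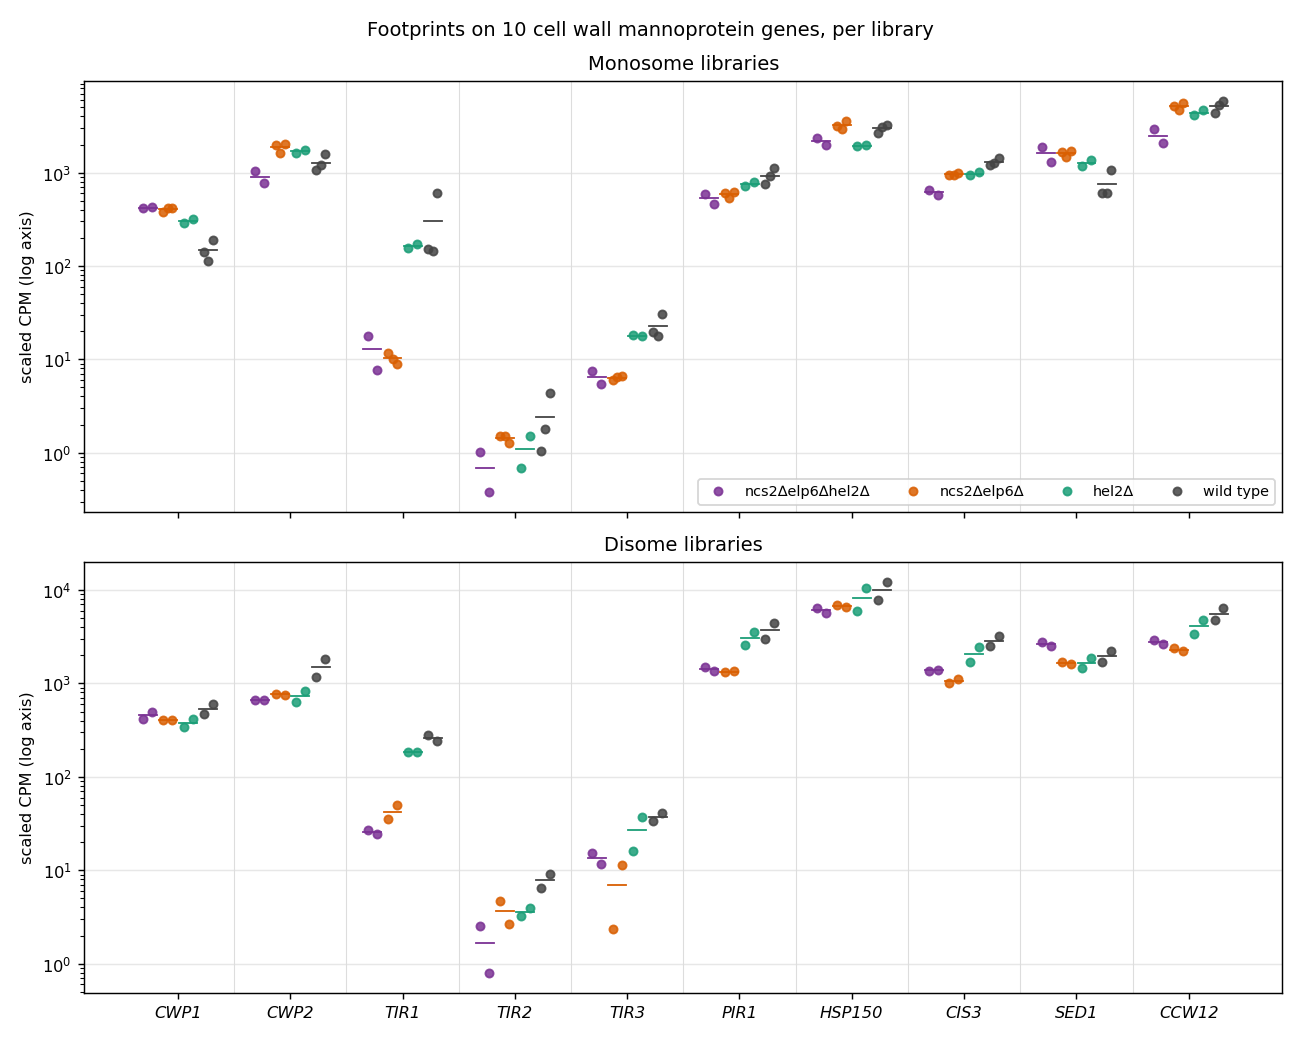
Scaled CPM (log axis) of the 10 genes in each monosome library (top) and disome library (bottom), with points for libraries and a short line for the mean of each strain. Monosome *TIR1* lies at 7.74 to 17.9 scaled CPM in the triple deletion and *ncs2*∆*elp6*∆, against 144 to 612 in *hel2*∆ and wild type.

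*CWP1*, which encodes a wall protein found at the birth scar, had more monosome footprints in every mutant library than in any wild-type library. It had 416 and 426 scaled CPM in the triple deletion, 377, 418 and 418 in *ncs2*∆*elp6*∆, 286 and 320 in *hel2*∆, and 143, 114 and 190 in wild type. The triple deletion and *ncs2*∆*elp6*∆ overlapped, *hel2*∆ lay between them and wild type, and no library of wild type reached any of the mutants. *CWP1* was higher in the triple deletion than in *hel2*∆ (log2 change 0.47 ± 0.07, adjusted p = 1.44e-07), and the change against *ncs2*∆*elp6*∆ was 0.08 ± 0.08 (adjusted p = 0.496). The call against *hel2*∆ was lost when all 4 strains were fitted together. The log2 change was 1.43 ± 0.18 (SE) in *ncs2*∆*elp6*∆ against wild type (adjusted p = 6.78e-04, edgeR quasi-likelihood test) and 1.49 ± 0.24 in the triple deletion against wild type (adjusted p = 0.00877). In *hel2*∆ against wild type it was 1.06 ± 0.27 and missed the threshold of 0.05 (adjusted p = 0.0605), but not without wild-type replicate 3 (1.27, adjusted p = 3.66e-08). Disome footprints of *CWP1* did not follow, with 415 and 494 scaled CPM in the triple deletion, 407 and 401 in *ncs2*∆*elp6*∆, 344 and 415 in *hel2*∆, and 467 and 597 in wild type.

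*CWP2*, the neighbouring gene on chromosome XI (259253 to 259531, against 261132 to 261851 for *CWP1*, both on the plus strand of the R64 assembly), encodes a small and abundant wall protein and had another order of levels. It had 1031 and 783 scaled CPM in the triple deletion, 1955, 1615 and 2044 in *ncs2*∆*elp6*∆, 1638 and 1762 in *hel2*∆, and 1081, 1198 and 1575 in wild type. Both strains with a single pathway removed were above wild type, and the triple deletion was below all other libraries on this scale. Its change against wild type was not called (−0.51 ± 0.23, adjusted p = 0.143), was −0.34 without wild-type replicate 3 (adjusted p = 0.0359) and was −0.10 with library totals in place of TMM (adjusted p = 0.771). *CWP2* rose in *ncs2*∆*elp6*∆ against wild type (log2 change 0.53 ± 0.15, adjusted p = 0.0141) and fell in the triple deletion against *ncs2*∆*elp6*∆ (−1.03 ± 0.12, adjusted p = 8.46e-05) and against *hel2*∆ (−0.92 ± 0.15, adjusted p = 0.00958). The call against wild type was lost without *ncs2*∆*elp6*∆ replicate 1 (0.50) or replicate 3 (0.46). The value was 0.44 ± 0.18 in *hel2*∆ against wild type (adjusted p = 0.132) and 0.60 without wild-type replicate 3 (adjusted p = 5.73e-11).

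The *TIR* genes encode serine- and alanine-rich wall proteins of the cold-shock and anaerobic response. *TIR1* had 17.9 and 7.74 scaled CPM in the triple deletion, 11.7, 10.2 and 8.99 in *ncs2*∆*elp6*∆, 155 and 173 in *hel2*∆, and 152, 144 and 612 in wild type. Every library without Ncs2 and Elp6 was far below every library with them, whether or not Hel2 was present. In *ncs2*∆*elp6*∆ against wild type *TIR1* fell 29.4-fold (log2 change −4.88 ± 0.87, adjusted p = 0.0104), the 6th lowest of 5281 changes, and without wild-type replicate 3 the change was −3.83 (adjusted p = 4.19e-13). In the triple deletion it fell 14.3-fold against *hel2*∆ (−3.84 ± 0.22, adjusted p = 1.08e-07), whereas against wild type the value of −4.70 ± 1.41 was called only without wild-type replicate 3 (−3.68, adjusted p = 1.18e-06, against 0.0803 with it). In *hel2*∆ against wild type *TIR1* was −0.85 ± 0.98 with all libraries (adjusted p = 0.579) and turned to 0.18 without replicate 3 (adjusted p = 0.0443), so its direction there rests on that library. The triple deletion and *ncs2*∆*elp6*∆ overlapped, with a change of 0.18 ± 0.26 (adjusted p = 0.658).

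*TIR3* had the same order at lower levels. It had 7.42 and 5.47 scaled CPM in the triple deletion, 6.04, 6.49 and 6.63 in *ncs2*∆*elp6*∆, 18.2 and 17.6 in *hel2*∆, and 19.8, 17.8 and 30.5 in wild type. It fell in *ncs2*∆*elp6*∆ (−1.85 ± 0.19, adjusted p = 1.45e-05) and in the triple deletion (−1.87 ± 0.34, adjusted p = 0.00202) against wild type, and in the triple deletion against *hel2*∆ (−1.53 ± 0.24, adjusted p = 3.25e-07). The fall against wild type in the triple deletion was not called without triple deletion replicate 2 (−1.62). The changes were −0.02 ± 0.22 in the triple deletion against *ncs2*∆*elp6*∆ (adjusted p = 0.970) and −0.32 ± 0.28 in *hel2*∆ against wild type (adjusted p = 0.437). *TIR2* was close to the limit of counting, with 3 and 2 monosome counts in the triple deletion, 42, 30 and 19 in *ncs2*∆*elp6*∆, 2 and 6 in *hel2*∆, and 12, 19 and 58 in wild type. It was called in no comparison of monosomes, its change in *ncs2*∆*elp6*∆ against wild type was −0.78 ± 0.43 (adjusted p = 0.146) and 0.04 without wild-type replicate 3, and it did not pass the filter on low counts in the triple deletion against *hel2*∆.

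Among the Pir genes, *PIR1* followed Ncs2 and Elp6. It had 594 and 466 scaled CPM in the triple deletion, 601, 537 and 628 in *ncs2*∆*elp6*∆, 728 and 790 in *hel2*∆, and 756, 913 and 1118 in wild type. It fell in *ncs2*∆*elp6*∆ against wild type (−0.67 ± 0.13, adjusted p = 0.00162), in the triple deletion against *hel2*∆ (−0.53 ± 0.10, adjusted p = 0.00113) and in the triple deletion against wild type (−0.81 ± 0.21, adjusted p = 0.0314). The changes were −0.14 ± 0.10 in the triple deletion against *ncs2*∆*elp6*∆ (adjusted p = 0.343) and −0.25 ± 0.18 in *hel2*∆ against wild type (adjusted p = 0.347). The call of the triple deletion against wild type was lost without triple deletion replicate 2 (−0.64) or wild-type replicate 2 (−0.83), and when libraries were scaled by their totals alone (−0.41, adjusted p = 0.229).

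*HSP150*, whose product is secreted and was named for its induction by heat, differed instead by *HEL2*. It had 2347 and 1995 scaled CPM in the triple deletion, 3187, 2953 and 3555 in *ncs2*∆*elp6*∆, 1918 and 1986 in *hel2*∆, and 2659, 3064 and 3272 in wild type. On this scale, though not with library totals alone, all 4 libraries without Hel2 were below all 6 libraries with it. The 4 libraries without Hel2 are also the shallow libraries. *HSP150* fell in *hel2*∆ against wild type (−0.58 ± 0.09, adjusted p = 1.02e-04) and in the triple deletion against *ncs2*∆*elp6*∆ (−0.56 ± 0.09, adjusted p = 5.43e-04). These calls also held after all libraries were thinned to equal depth. Thinning evens the number of counts alone, so it cannot tell the deletion apart from other differences between shallow and deep libraries. Against *hel2*∆ the triple deletion was at 0.15 ± 0.06 (adjusted p = 0.0591), and at 0.28 with library totals (adjusted p = 0.00237). The change in *ncs2*∆*elp6*∆ against wild type was 0.10 ± 0.09 (adjusted p = 0.366) but 0.35 with library totals alone (adjusted p = 0.00239), and the fall in the triple deletion against wild type (−0.47 ± 0.10, adjusted p = 0.00180) was not called without triple deletion replicate 2 (−0.35) and shrank to −0.06 with library totals (adjusted p = 0.669).

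*CIS3*, which lies next to *HSP150* on chromosome X (122265 to 122948 on the minus strand, against 120449 to 121690 on the plus strand), was lower in every mutant. It had 650 and 577 scaled CPM in the triple deletion, 953, 937 and 991 in *ncs2*∆*elp6*∆, 933 and 1005 in *hel2*∆, and 1194, 1263 and 1422 in wild type. The strains with a single pathway removed overlapped, and the triple deletion was below both. *CIS3* fell in *ncs2*∆*elp6*∆ (−0.44 ± 0.08, adjusted p = 2.28e-04), in *hel2*∆ (−0.38 ± 0.08, adjusted p = 0.00248) and in the triple deletion (−1.08 ± 0.10, adjusted p = 3.33e-07) against wild type. It also fell in the triple deletion against *ncs2*∆*elp6*∆ (−0.63 ± 0.08, adjusted p = 3.91e-05) and against *hel2*∆ (−0.67 ± 0.07, adjusted p = 2.93e-12). The call in *hel2*∆ was lost without *hel2*∆ replicate 1 (−0.33) or replicate 2 (−0.43), and with library totals (−0.14, adjusted p = 0.234).

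*SED1*, the most abundant GPI wall protein of stationary cells, had 1901 and 1316 scaled CPM in the triple deletion, 1676, 1470 and 1692 in *ncs2*∆*elp6*∆, 1174 and 1383 in *hel2*∆, and 604, 606 and 1061 in wild type. All mutant libraries were above all wild-type libraries. *SED1* rose in *ncs2*∆*elp6*∆ against wild type (1.08 ± 0.27, adjusted p = 0.0256), a call that was lost without any of the 3 *ncs2*∆*elp6*∆ libraries (1.05, 1.15 and 1.04) or without wild-type replicate 1 (0.94) and that became 1.41 without wild-type replicate 3 (adjusted p = 1.96e-09). The changes of 1.08 ± 0.40 in the triple deletion (adjusted p = 0.119) and 0.79 ± 0.36 in *hel2*∆ (adjusted p = 0.212) were not called with all libraries and became 1.41 (adjusted p = 0.0143) and 1.11 (adjusted p = 8.03e-16) without replicate 3. *SED1* was at 0.01 ± 0.13 in the triple deletion against *ncs2*∆*elp6*∆ (adjusted p = 0.954) and at 0.32 ± 0.27 against *hel2*∆ (adjusted p = 0.466).

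*CCW12*, which encodes an abundant protein of newly made wall, had 2913 and 2085 scaled CPM in the triple deletion, 5226, 4693 and 5522 in *ncs2*∆*elp6*∆, 4150 and 4639 in *hel2*∆, and 4377, 5249 and 5915 in wild type. The libraries of the triple deletion lay below all others, with a fall of −1.02 ± 0.12 against *ncs2*∆*elp6*∆ (adjusted p = 9.09e-05) and of −1.05 ± 0.21 against wild type (adjusted p = 0.0121, and −0.95 with 0.0682 without wild-type replicate 3). The call against wild type was also lost with library totals (−0.65, adjusted p = 0.0922), and against *hel2*∆ the value of −0.82 ± 0.24 was not called (adjusted p = 0.112). The changes were −0.02 ± 0.10 in *ncs2*∆*elp6*∆ (adjusted p = 0.901) and −0.20 ± 0.13 in *hel2*∆ (adjusted p = 0.266) against wild type.

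In *ncs2*∆*elp6*∆ against wild type, 3 of the 10 genes rose and 4 fell, in a comparison that called 53.0% of 5281 genes tested. In *hel2*∆ against wild type none rose and 2 fell, *HSP150* and *CIS3*, where 31.9% of 5225 genes were called, and without wild-type replicate 3 4 rose and 2 fell, where 42.7% of 5145 genes were called. In the triple deletion against *ncs2*∆*elp6*∆ none rose and 4 fell, *CWP2*, *HSP150*, *CIS3* and *CCW12*, with 24.3% of 5318 genes called. Of the 9 genes tested in the triple deletion against *hel2*∆ 1 rose and 5 fell (44.2% of 5027 genes called), and against wild type 1 of 10 rose and 5 fell (45.7% of 5272), or 2 and 6 without wild-type replicate 3 (50.7% of 5204). These comparisons share libraries. The median log2 change of the 10 genes was −0.23 in *ncs2*∆*elp6*∆, −0.29 in *hel2*∆ and −0.93 in the triple deletion against wild type, beside 0.02, 0.03 and 0.03 for all genes tested. Without wild-type replicate 3 these medians were 0.07, −0.08 and −0.81, beside 0.02 for all genes in each, so that the sign in *ncs2*∆*elp6*∆ turned.

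**Figure D2:**
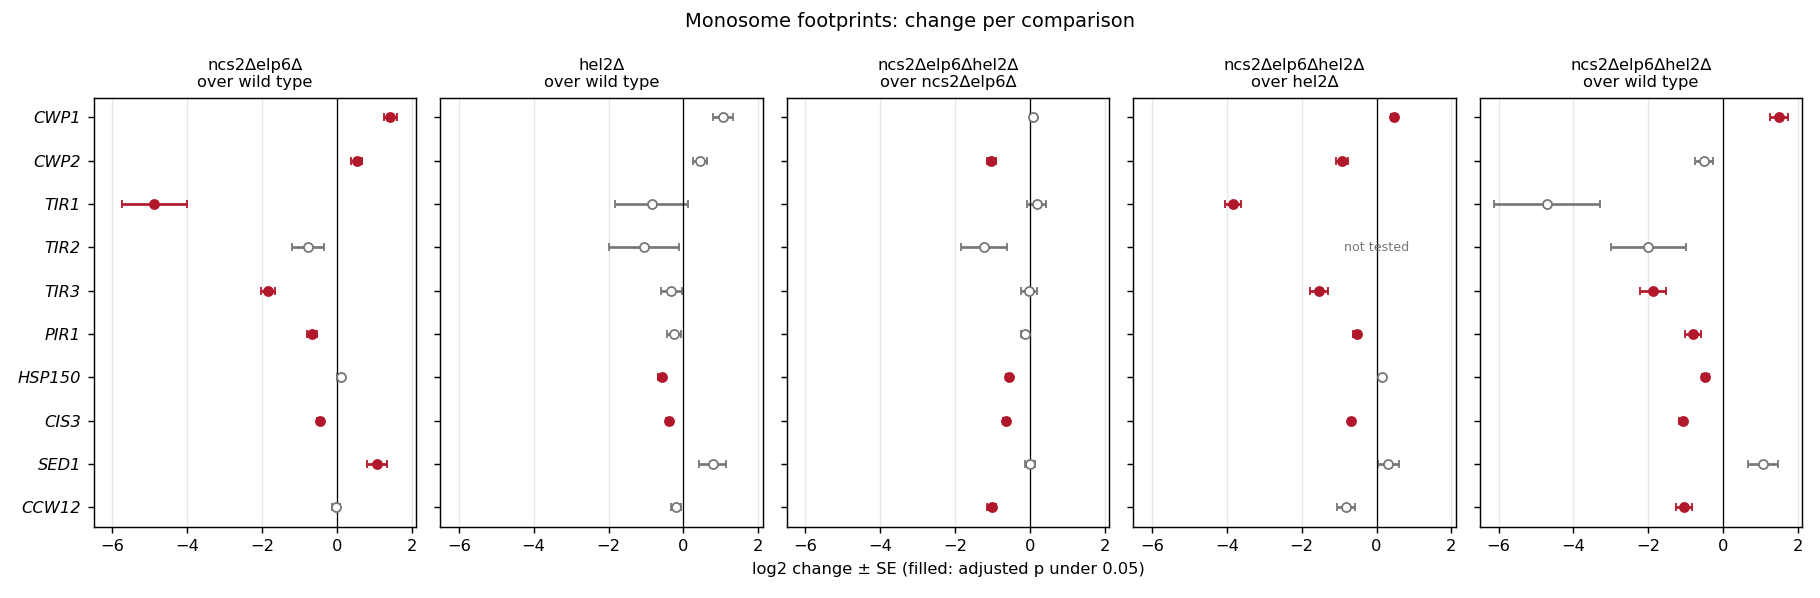
Log2 change of monosome footprints (x axis, ± SE) of each gene in the 5 comparisons, with the first-named strain over the second and filled points for an adjusted p under 0.05. *TIR1* and *TIR3* lie to the left where Ncs2 and Elp6 are absent from the first strain alone, and *CWP2* and *CCW12* lie near −1 in the triple deletion over *ncs2*∆*elp6*∆.

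Whether deleting *HEL2* had a different effect in *ncs2*∆*elp6*∆ than in the wild-type background was tested in 1 fit of all 10 monosome libraries, as the change in the triple deletion against *ncs2*∆*elp6*∆ minus the change in *hel2*∆ against wild type. This comparison called 5.29% of 5354 genes, and of the 10 wall genes *CWP2* alone, with a difference of −1.46 ± 0.26 on the log2 scale (adjusted p = 0.0193). *CWP1* (−0.97 ± 0.25, adjusted p = 0.0648) and *CCW12* (−0.82 ± 0.22, adjusted p = 0.0695) had the next smallest p-values, and the others ranged from −0.77 ± 0.42 (*SED1*) to 1.03 ± 1.49 (*TIR1*). Without wild-type replicate 3, *CWP1*, *CWP2*, *CIS3*, *SED1* and *CCW12* were called, with 13.0% of 5334 genes called in that fit, whereas the call of *CWP2* was lost without triple deletion replicate 2 (−1.28), *ncs2*∆*elp6*∆ replicate 1 (−1.43) or replicate 3 (−1.40), or *hel2*∆ replicate 1 (−1.51) or replicate 2 (−1.41).

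The ratio of disome to monosome scaled CPM of same-numbered libraries, which the labels do not tie to the same culture, differed widely among these genes. In wild type *PIR1* had a mean log2 ratio of 2.14 (the 98.0th percentile of 5053 genes), *CWP1* of 2.05 (97.7th), *HSP150* of 1.78 (96.8th), *SED1* of 1.68 (96.3rd) and *CIS3* of 1.21 (91.5th), whereas *CWP2* (0.36, 68.4th) and *CCW12* (0.20, 61.5th) were near the middle. The median of all genes was −0.04. *PIR1* and *HSP150* were at the 92.4th percentile or above in all 4 strains, with mean log2 ratios of 1.45 and 1.48 in the triple deletion, 1.23 and 1.14 in *ncs2*∆*elp6*∆ and 1.99 and 2.02 in *hel2*∆. *CWP1* was near the middle in all mutants, with 0.11 in the triple deletion (58.2nd percentile), 0.03 in *ncs2*∆*elp6*∆ (54.7th) and 0.32 in *hel2*∆ (68.1st). *CWP2* reached −1.22 in *ncs2*∆*elp6*∆ (9.9th) and −1.23 in *hel2*∆ (6.8th), but −0.43 in the triple deletion (30.3rd). *TIR1* had 0.81 in wild type (83.4th) and 0.17 in *hel2*∆ (60.1st), but 1.91 in *ncs2*∆*elp6*∆ (98.4th) and 1.11 in the triple deletion (94.6th). Its disome counts were 30 to 56 in *ncs2*∆*elp6*∆ and 31 to 32 in the triple deletion. *TIR2* and *TIR3* rest on few disome counts, at most 12 and 76 in any library.

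**Figure D3:**
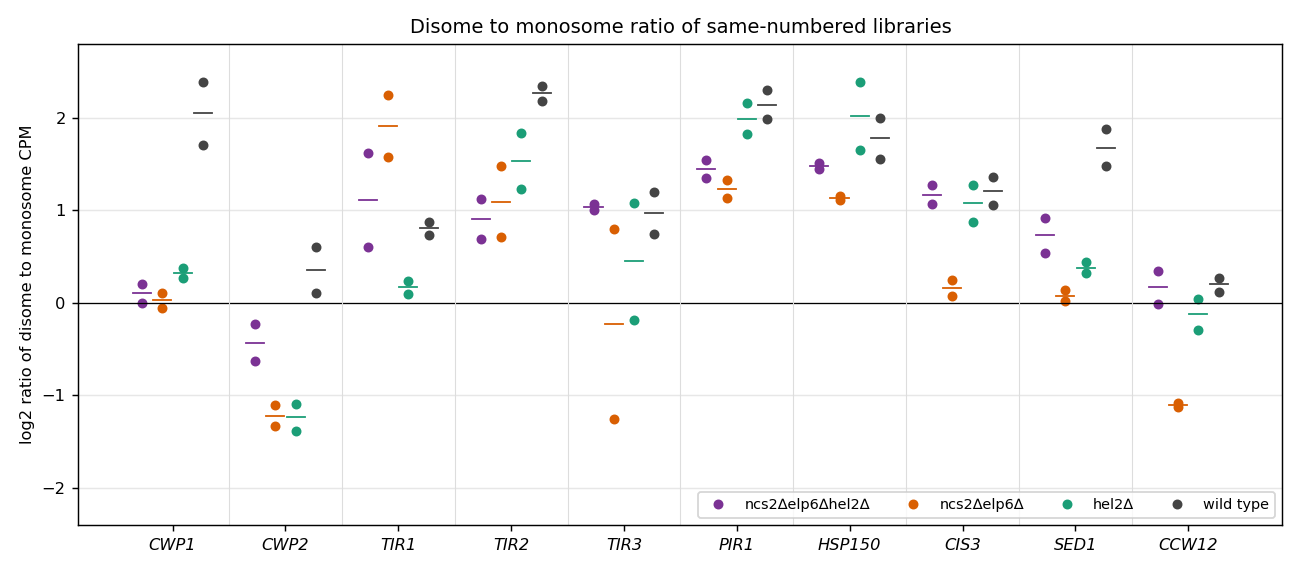
Log2 ratio of disome to monosome scaled CPM (y axis) for the 2 same-numbered pairs of libraries of each strain, with a short line for their mean. *CWP1* and *SED1* are highest in wild type, and *CIS3* and *CCW12* are lowest in *ncs2*∆*elp6*∆.

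Disome enrichment, the change of disome counts beyond that of monosome counts, was tested as the dependence of the disome effect on genotype. In *ncs2*∆*elp6*∆ against wild type it fell for 4 of the 10 genes and rose for none, with 18.6% of 5400 genes called. *CWP1* fell by 1.78 on the log2 scale (SE 0.27, adjusted p = 8.71e-04), *CWP2* by 1.46 (SE 0.32, adjusted p = 0.0125), *CCW12* by 1.21 (SE 0.19, adjusted p = 7.03e-04) and *CIS3* by 0.95 (SE 0.16, adjusted p = 4.56e-04). The parts of these differences were unlike. For *CWP1* monosomes rose while the change in disome libraries alone was −0.40 ± 0.14. For *CCW12*, monosomes were at −0.02 ± 0.10 and disomes at −1.27 ± 0.13, with disome levels of 2391 and 2221 scaled CPM in *ncs2*∆*elp6*∆ and 4766 and 6340 in wild type. *CIS3* disomes changed by −1.44 ± 0.13, with 1003 and 1113 scaled CPM in *ncs2*∆*elp6*∆ and 2486 and 3237 in wild type. *SED1* (−1.28 ± 0.38, adjusted p = 0.0557) and *PIR1* (−0.78 ± 0.27, adjusted p = 0.0757) missed the threshold, and without wild-type monosome replicate 3 they and *TIR1* (1.24, adjusted p = 0.00153, against 2.35 ± 1.43 and 0.329 with it) were called, where 18.4% of 5389 genes were called. *HSP150* (−0.63 ± 0.24, adjusted p = 0.0977), *TIR3* (−0.40 ± 0.61) and *TIR2* (−0.31 ± 1.01) were not called in either fit.

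In *hel2*∆ against wild type, enrichment fell for *CWP1* (−1.55 ± 0.29, adjusted p = 0.0141) and *CWP2* (−1.49 ± 0.32, adjusted p = 0.0327) and rose for none of the 10 genes, with 5.13% of 5011 genes called. Either call was lost without any 1 of the *hel2*∆ monosome or disome libraries (−1.70 to −1.40 for *CWP1* and −1.71 to −1.28 for *CWP2*). The call of *CWP1* was also lost without wild-type disome replicate 2 (−1.34), and that of *CWP2* without wild-type monosome replicate 2 (−1.44). Without wild-type monosome replicate 3, *SED1* (−1.34, adjusted p = 0.00195, against −1.03 ± 0.42 and 0.220 with it) and *TIR1* (−0.68, adjusted p = 0.0247, against 0.35 ± 1.15 and 0.910 with it) were called as well, which made 4 genes where 6.60% of 4999 were called. Enrichment rose for 4 of the 9 genes tested in the triple deletion against *ncs2*∆*elp6*∆ and fell for none (17.1% of 5024 genes called). These were *CCW12* (1.27 ± 0.20, adjusted p = 0.00208), *CIS3* (0.99 ± 0.11, adjusted p = 1.77e-08), *CWP2* (0.81 ± 0.17, adjusted p = 0.00356) and *HSP150* (0.38 ± 0.11, adjusted p = 0.0174), the genes whose monosome footprints fell in that comparison, and the same monosome counts enter both results. The call of *CWP2* was lost without *ncs2*∆*elp6*∆ monosome replicate 3 (0.73). That of *HSP150* was lost without triple deletion monosome replicate 2 (0.28), triple deletion disome replicate 1 (0.30), or *ncs2*∆*elp6*∆ disome replicate 1 (0.41) or replicate 2 (0.36). *CIS3* had 1366 and 1387 scaled CPM of disomes in the triple deletion and 1003 and 1113 in *ncs2*∆*elp6*∆. *CCW12* had 2901 and 2660 in the triple deletion and 2391 and 2221 in *ncs2*∆*elp6*∆. For *CWP2* and *HSP150* disomes were lower in the triple deletion, by 0.19 and 0.15 on the log2 scale, and less so than monosomes. Against *hel2*∆, enrichment in the triple deletion rose for *CWP2* alone (0.79 ± 0.19, adjusted p = 0.0114, 9.02% of 5034 genes called), a call that was lost without triple deletion monosome replicate 2 (0.58), triple deletion disome replicate 2 (0.80) or *hel2*∆ monosome replicate 2 (0.71), and against wild type it fell for *CWP1* alone (−1.73 ± 0.28, adjusted p = 0.00190, 14.9% of 5018). Without wild-type monosome replicate 3 it also fell for *SED1* (−0.99, adjusted p = 0.0125, 15.1% of 4951 genes called). The genes not called ranged from −1.03 (*SED1*) to 0.35 (*TIR1*) in *hel2*∆ against wild type, and in the triple deletion from −0.96 (*TIR1*) to 0.83 (*TIR3*) against *ncs2*∆*elp6*∆, from −0.57 (*HSP150*) to 1.01 (*TIR1*) against *hel2*∆ and from −0.67 (*CWP2* and *SED1*) to 1.35 (*TIR1*) against wild type.

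**Figure D4:**
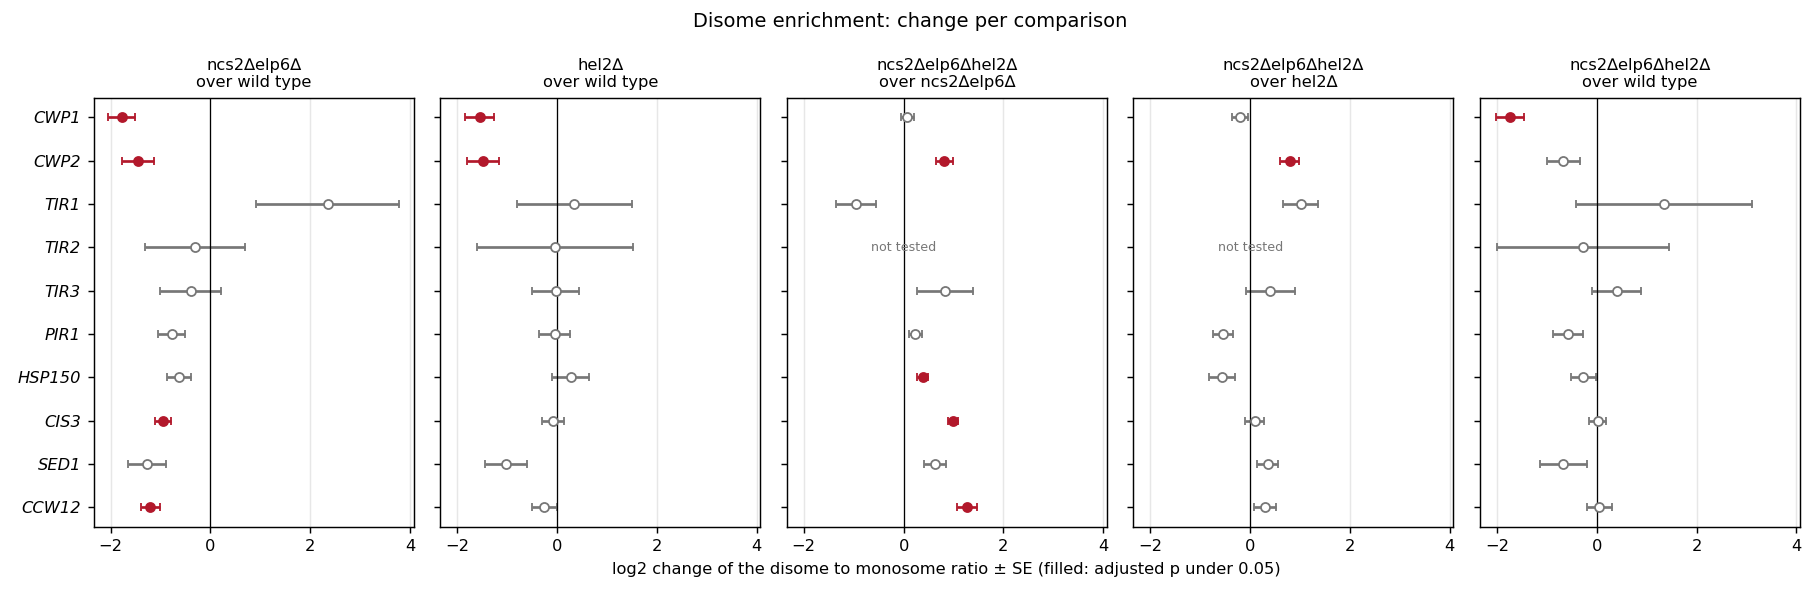
Log2 change of disome enrichment (x axis, ± SE) of each gene in the 5 comparisons, with the first-named strain over the second and filled points for an adjusted p under 0.05. *CWP1*, *CWP2*, *CIS3* and *CCW12* lie to the left in *ncs2*∆*elp6*∆ over wild type, and *CWP2*, *HSP150*, *CIS3* and *CCW12* to the right in the triple deletion over *ncs2*∆*elp6*∆.

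Over the 10 monosome libraries, the log2 levels of *TIR1* and *TIR3* had a Pearson r of 0.99 with each other. Outside the 10 genes, *TIP1*, another cold-shock wall mannoprotein gene, was the most alike to both among 4819 genes (r = 0.99 each). Next were *MRP2* for *TIR1* and *MET6* for *TIR3* (r = 0.98 each). *CWP1* and *SED1* had r = 0.94 with each other, and *CWP1* had its lowest r among these genes with *TIR3* (−0.78). Outside the set, the genes most like *CWP1* were *YMR196W* (r = 0.99) and *GAD1* (0.98), those most like *CIS3* were *LAT1* (0.99) and *TUP1* (0.98), and for *CCW12* they were *THR1* (0.95) and *POR1* (0.94). These values are a description over 10 libraries of 4 strains that share strain and depth, and without wild-type replicate 3 each was within 0.02 of the value given.

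Of 18 other wall mannoprotein genes, 11 were tested in *ncs2*∆*elp6*∆ against wild type, of which 4 rose and 5 fell. *PIR3*, the neighbour of *PIR1*, rose by 2.87 ± 0.17 (adjusted p = 2.41e-09), with 22.5, 21.1 and 17.6 scaled CPM in *ncs2*∆*elp6*∆ and 3.30, 3.31 and 1.89 in wild type, opposite to *PIR1*. *DAN1*, a gene of anaerobic growth, fell by 4.75 on the log2 scale (SE 0.68, adjusted p = 4.26e-04), with 3, 5 and 3 counts in *ncs2*∆*elp6*∆ and 52, 19 and 107 in wild type. In *hel2*∆ *DAN1* had 0 and 0 counts, and its change against wild type was not called (−8.37 ± 3.51, adjusted p = 0.197). Of 22 glucan and chitin remodelling genes 4 rose and 10 fell, led by *SCW4* (−1.23 ± 0.08) and *UTH1* (−1.14 ± 0.07). Of 16 genes of glucan and chitin synthesis 6 rose and 3 fell, led by *GSC2*, a catalytic subunit of β-1,3-glucan synthase (1.20 ± 0.09), and *CHS5* (0.76 ± 0.07). Of 18 genes of cell wall integrity signalling 10 rose and 3 fell, led by *SLT2* (1.31 ± 0.08, adjusted p = 1.77e-09). *RLM1* (0.73 ± 0.12, adjusted p = 1.41e-04) and *PTP2* (0.73 ± 0.14, adjusted p = 3.15e-04) followed. Among 9 regulators of hypoxic and cold-shock wall genes 2 rose and 2 fell, led by *MGA2* (−0.70 ± 0.10) and *UPC2* (−0.63 ± 0.10). Each of these counts stands beside the 53.0% of all genes called. Without wild-type replicate 3 the signalling genes that fell were 1 and the other mannoprotein genes that rose were 5. With library totals, which raised the median of all genes and made 81.0% of all calls higher, 10 remodelling genes rose and 8 fell. Under that scaling 12 synthesis genes rose and 1 fell, and 13 signalling genes rose and none fell. The split of the remodelling genes therefore turned with the scaling.

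In *hel2*∆ against wild type, where 31.9% of all genes were called, 7 of the 18 signalling genes rose and none fell, led by *ROM1* (1.04 ± 0.33) and *SWI4* (0.66 ± 0.18). Of the remodelling genes 3 rose and 5 fell, with *UTH1* at −0.90 ± 0.07 and *SIM1* at −0.57 ± 0.08. Of the synthesis genes 5 rose and 2 fell, led by *KRE1* (−0.52 ± 0.09) and *FKS1*, another catalytic subunit of β-1,3-glucan synthase (0.47 ± 0.07). Of the other mannoprotein genes *TOS6* rose (0.62 ± 0.12) and *ECM33* fell (−0.29 ± 0.08), and of the regulators 3 rose and 1 fell, led by *HAP4* (1.01 ± 0.15) and *UPC2* (−0.79 ± 0.14). Without wild-type replicate 3, where 42.7% of all genes were called, 5 other mannoprotein genes rose and 3 fell, and 6 remodelling genes rose and 6 fell. Among the mannoprotein genes that fell in that fit were *DAN1* (−7.54 ± 1.59, adjusted p = 8.99e-04) and *TIR4* (−3.65 ± 0.88, adjusted p = 0.00263). *DAN1* had 0 and 0 counts in *hel2*∆, against 52 and 19 in wild-type replicates 1 and 2, so the size of its fall is not well measured. *TIR4* had too few counts to be tested in the triple deletion against *hel2*∆. With all libraries *TIR4* was at −4.37 ± 2.03 and not called (adjusted p = 0.207). With library totals, where 85.2% of all calls were higher, 10 remodelling genes rose and 3 fell, and 11 synthesis genes rose and 1 fell. Of the signalling genes 13 rose and none fell, and of the other mannoprotein genes 3 rose and none fell.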

How the data were processed

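Values are whole-number footprint counts for each gene as deposited, in 1 table for monosomes and 1 for disomes. Per the study's methods and processing notes, adapters and linker bases were removed, noncoding RNA was discarded with STAR 2.5.3a, and the rest was mapped to open reading frames extended by 21 bases at each end with Bowtie 1.2.3, keeping unique sense matches with at most 1 mismatch (disomes of 56 to 64 nt only). The build was sacCer3, and no removal of PCR duplicates was stated. Groups and replicate numbers come from the sample titles, and the study calls the replicates biological.

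The test was edgeR's quasi-likelihood F test (version 4.0.16, R 4.3.3) with TMM, filterByExpr and robust dispersion, fitted to the strains compared. Disome enrichment was the library type by genotype term in a fit of both kinds of library. P-values were adjusted over all genes tested by the Benjamini-Hochberg method and called under 0.05. SE is the absolute log2 change over the square root of F. Simulated data with known changes were tested with the same code. Printed levels use TMM factors over all 18 libraries, and log2 ratios and correlations use a prior count of 2. Ratio percentiles cover genes with at least 20 summed counts in each table, and correlations cover genes with a mean of at least 50 counts. Coding lengths, positions and neighbours come from the RefSeq R64 table, which held 5716 of 6085 monosome identifiers and all 10 genes. DESeq2 1.42.0 and the other settings tried are given in the closing section.

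The genes and the lists of other wall genes were chosen with earlier results of these data known. All 10 genes are described in the comparisons, those not called for disome enrichment mostly as a range, and from each list up to 2 called genes with the largest absolute change in *ncs2*∆*elp6*∆ and in *hel2*∆ against wild type. *PTP2* is named as well because its change equalled that of *RLM1* at the digits given. *DAN1* and *TIR4* are also named for *hel2*∆, where they were not called with all libraries but were called without wild-type replicate 3. No sequences are shown.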

Additional observations from a re-analysis of the deposited data

Results flagged for a closer look

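The change in *CWP2* monosome footprints on deleting *HEL2* differed between backgrounds. The log2 change was −1.03 ± 0.12 (SE) in the triple deletion against *ncs2*∆*elp6*∆ and 0.44 ± 0.18 in *hel2*∆ against wild type, and the difference of −1.46 ± 0.26 passed the test of the difference itself (adjusted p = 0.0193, edgeR). *CWP2* levels in the triple deletion, 1031 and 783 scaled CPM, were below those of *ncs2*∆*elp6*∆ (1955, 1615 and 2044), *hel2*∆ (1638 and 1762) and wild type (1081, 1198 and 1575). The difference ranged from −1.68 to −1.28 over the 18 alternatives and lost its call in 5 of them, each of which left out 1 library. The monosome libraries without Hel2 are also the shallow ones, and after thinning all libraries to equal depth *CWP2* kept its call. Because thinning evens the number of counts alone, it cannot tell the deletion apart from other differences between shallow and deep libraries. No group held enough libraries to test single values for outliers.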

How the results depend on the processing

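Results for the 10 genes were recomputed with DESeq2, other size factors, other filters on low counts, dispersion that was not robust, libraries thinned to equal depth, all strains in 1 fit, a replicate block and each library left out, and, added after the data were seen, with library totals in place of TMM. Of 1809 values for single genes, 1639 kept their side of the threshold, 47 lost a call and 118 gained one. Of the 1639, 69 had another sign with no call in either setting. The 5 that reversed all concern *TIR1* in *hel2*∆ against wild type. Its monosome change was 0.20 with the replicate block and 0.18 without wild-type replicate 3 (−1.19 to 0.18 when a library was left out), and its enrichment change was −0.70 with the replicate block, −0.68 with a replicate block of strain and number and −0.68 without wild-type replicate 3 (−0.68 to 0.68 when a library was left out), which the block of strain and number also leaves out. The cause was not tested.

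The number of the 10 genes called in monosomes of *hel2*∆ against wild type was 2, and was 5 when dispersion was not robust, 6 with the replicate block and 1 to 6 when a library was left out. For the triple deletion against wild type it was 6, 3 with library totals and 3 to 8 when a library was left out. For the difference between backgrounds it was 1, 3 with DESeq2, when dispersion was not robust and with the replicate block, 2 when thinned, and 0 to 5 when a library was left out. For enrichment in *ncs2*∆*elp6*∆ against wild type it was 4, 7 with DESeq2, when dispersion was not robust and with the replicate block, 8 with the block of strain and number, and 4 to 7 when a library was left out. In *hel2*∆ against wild type it was 2, 1 with no filter on low counts, 4 with either replicate block and 0 to 4 when a library was left out. For the triple deletion against *ncs2*∆*elp6*∆ it was 4, 2 with all 4 strains in 1 fit and 3 to 6 when a library was left out. Against *hel2*∆ it was 1, 4 with no filter, 2 when thinned, 0 with all 4 strains, 3 with the block of strain and number and 0 to 3 when a library was left out. Against wild type it was 1, 2 with the replicate block, 4 with the block of strain and number and 1 to 2 when a library was left out. In the other monosome comparisons it was 7 (5 to 8 over all settings), 4 (4 to 5) and 6 (6 to 9). With the block of strain and number, 14.6% of all genes were called for enrichment in *ncs2*∆*elp6*∆ and 6.66% in *hel2*∆ against wild type. For the triple deletion these shares were 19.5% against *ncs2*∆*elp6*∆, 10.6% against *hel2*∆ and 13.2% against wild type. In the main fits they were 18.6%, 5.13%, 17.1%, 9.02% and 14.9%. For the remaining settings the share is not given here, so whether a count moved with all genes cannot be read from it.

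Same-numbered libraries of different strains did not deviate together (correlations of −0.17 to 0.06), nor did monosome and disome libraries of the same strain and number (−0.01 to 0.04), although the methods describe both fractions as collected from a gradient, so the numbers were not taken to pair samples. With library totals, the median monosome change of all genes was 0.27 in *ncs2*∆*elp6*∆, 0.27 in *hel2*∆ and 0.43 in the triple deletion against wild type, and 81.0%, 85.2% and 85.7% of all calls were higher, against 50.2%, 46.0% and 49.2% with TMM. For the triple deletion against *ncs2*∆*elp6*∆ and *hel2*∆ these shares were 78.1% and 67.7%, against 49.5% and 50.9%. For the difference between backgrounds the share was 29.2%, against 56.5%, and for enrichment it was 29.4% in *hel2*∆ against wild type, 36.5% in the triple deletion against *ncs2*∆*elp6*∆ and 67.7% against *hel2*∆, beside 46.7%, 52.3% and 50.4% with TMM. The wild-type disome ratio of *TIR2* was 2.27, and 2.43 with a prior count of 0.5. Depth limits *TIR2* in every comparison and *TIR3* in disomes.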
